A study of Homo sapiens with 6 samples.

Results

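The proteasome genes examined here are the rows of the expression table whose symbols run from PSMA through PSMG with a number, 46 of 17047 genes, so that membership rests on the symbol and on no measured value. They comprise 7 alpha and 7 beta subunits of the core particle, 3 inducible beta subunits, 6 ATPases and 3 further subunits of the regulatory particle's base, 8 subunits of its lid, 4 activators, the regulator PSMF1 and 7 assembly chaperones. PSMA8 and PSMB11, which the same symbol rule would take in, have no row in the expression table. RNA sequencing was carried out on HCT116 cells, an established human colorectal carcinoma line, to ask how loss of PLEK2, a pleckstrin-family protein, alters the transcriptome. All 6 libraries came from cells carrying an integrated lentiviral shRNA vector, 3 with the non-targeting shNC and 3 with an shRNA against PLEK2. A single PLEK2 shRNA sequence represents the knockdown, so effects of that sequence and of PLEK2 loss cannot be told apart. Nothing in the sources says that libraries of a group came from separate cultures, and p-values therefore measure only the spread between these libraries, which may be technical.

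The proteasome is the main protease of the cytosol and nucleus, and it degrades proteins tagged with ubiquitin chains. Its core particle is a barrel of alpha rings, which gate entry, around beta rings, which hold the catalytic sites of PSMB5 (chymotrypsin-like), PSMB6 (caspase-like) and PSMB7 (trypsin-like). The regulatory particle caps the barrel. Its base unfolds substrates with a ring of ATPases, and its lid removes the ubiquitin chain. In part through interferon-stimulated response elements, interferon induces the subunits PSMB8, PSMB9 and PSMB10, which replace PSMB5, PSMB6 and PSMB7 respectively to form the immunoproteasome, together with the activator PSME1-PSME2. When proteasome activity falls short, the transcription factor NFE2L1 raises many subunit genes at once through antioxidant response elements.

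Stretches of promoter are shown first for 4 of the interferon-inducible members and then for 3 members with an antioxidant response element core, because they hold the letters of the interferon and antioxidant elements just described. Sequences are from RefSeq (GRCh38.p14), read 5′ to 3′ on the gene's own strand. Capitals mark a match to the core of the interferon-stimulated response element (GAAA, any pair of bases, GAAA) or to its reverse complement. The first 4 are the genes for 2 inducible subunits and for both parts of the interferon-induced activator.
PSMB8 (chr6:32844028-32844081, minus strand): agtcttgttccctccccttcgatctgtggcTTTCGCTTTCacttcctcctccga
PSMB10 (chr16:67936832-67936901, minus strand): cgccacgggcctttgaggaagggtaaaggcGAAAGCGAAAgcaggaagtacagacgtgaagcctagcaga
PSME1 (chr14:24136169-24136213, plus strand): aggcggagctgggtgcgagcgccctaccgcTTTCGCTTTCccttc
PSME2 (chr14:24146599-24146668, minus strand): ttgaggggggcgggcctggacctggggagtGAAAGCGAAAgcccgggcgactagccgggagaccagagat

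Promoter windows reached from 250 bases before to 50 after the start site, and 40 of the 46 genes had an entry. PSMA7, PSMB1, PSMB6, PSMB7, PSMD4 and PSMG3 had none. The interferon core occurred on either strand in 7 of the 40 genes (17.5%), the 4 above and PSMA4, PSMB4 and PSMG4 but not PSMB9, against 3.57% of all 35116 promoters of that length. TGACNNNGC, the core of the antioxidant response element, occurred in 15 of the 40 (37.5%), against 13.35% of all promoters. It is shown, in capitals and on either strand, for 3 genes whose levels are followed library by library further on.
PSMD3 (chr17:39980740-39980808, plus strand): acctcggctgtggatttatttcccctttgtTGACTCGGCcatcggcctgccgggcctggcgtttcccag
PSMD12 (chr17:67366704-67366772, minus strand): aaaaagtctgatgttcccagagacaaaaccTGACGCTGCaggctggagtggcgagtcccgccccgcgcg
PSME4 (chr2:53970989-53971057, minus strand): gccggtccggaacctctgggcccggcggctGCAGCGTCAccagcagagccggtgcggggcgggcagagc

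Of the other letters searched, CCGGAAG, the core bound by ETS factors, was found in 14 of the 40 genes (35.0%) and in 10.26% of all promoters. CCAAT was found in 19 (47.5%) against 34.61%, and the site of nuclear respiratory factor (GCGCA, any base, GCGC) in 5 (12.5%) against 5.78%. These matches describe letters in a window and carry no evidence of binding. Genes with several entries were counted once if any entry held the motif, which favours the genes over the single promoters. Per gene, the share over all genes was 16.06% for TGACNNNGC, 4.38% for the interferon core, 12.16% for CCGGAAG, 39.72% for CCAAT and 6.98% for the nuclear respiratory factor site.

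The libraries held between 14377532 and 15602732 estimated counts, and the 46 genes together took between 0.607% and 0.656% of them. PLEK2 itself was measured at 86.0, 72.6 and 82.9 CPM (counts scaled to library size by TMM) in shNC libraries 1 to 3 and at 16.02, 32.2 and 34.9 CPM in the shRNA libraries. The groups did not overlap, and library 1 of the shRNA group was the lowest. Its log2 fold change was -1.54 (SE 0.24), which edgeR's quasi-likelihood test over 12959 genes gave an adjusted p of 0.684, and -1.57 (SE 0.17) with an adjusted p of 0.00106 once the replicate number entered as a block. Without the block, PLEK2 was called by DESeq2's Wald test (-1.53, adjusted p = 5.09e-07) and by edgeR without shRNA library 1 (-1.26, adjusted p = 0.0106), while the other fits without the block gave adjusted p-values from 0.134 to 0.9999. Of 9 epithelial markers in the table, 7 reached 1 FPKM (reads scaled to transcript length and library total), among them EPCAM, KRT8 and CDH1, while VIL1 and CDH17 stayed at or under 0.08 FPKM. Summed epithelial markers ranged from 5060 to 5814 FPKM in shNC and from 4221 to 5381 FPKM in shRNA libraries, and their part in the results was not tested. No leukocyte marker and only COL1A1 of 4 fibroblast markers reached 1 FPKM.

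Proteasome mRNAs were abundant, and every member but PSMB8 and PSMB9 averaged 17.9 FPKM or more over the 6 libraries. In the alpha ring, PSMA7 had the highest mean over the 6 libraries. It was measured at 160.4, 173 and 197 FPKM in shNC and 182, 171 and 175 FPKM in shRNA libraries. Within the shRNA group PSMA4 had the higher mean (177.7 against 176.3 FPKM). PSMA5 stood lowest, with 30.7, 28.2 and 30.2 FPKM in shNC and 34.0, 29.0 and 30.8 FPKM in shRNA libraries. For PSMA7 and PSMA5 the ranges of the groups overlapped. The beta ring was led by PSMB1, at 232, 247 and 269.6 FPKM in shNC and 254, 251 and 262 FPKM in shRNA libraries, and PSMB2 was its least abundant subunit, at 59.9, 56.8 and 57.3 against 58.0, 59.3 and 60.8 FPKM. Beta subunits varied little from library to library, with coefficients of variation over the 6 libraries between 2.63% and 5.14%, whereas those of the alpha subunits lay between 5.82% and 12.9%. This difference in spread between the rings was not tested.

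Among the ATPases of the base, PSMC5 was the most abundant, at 157, 160.4 and 169 FPKM in shNC and 161, 163 and 167 FPKM in shRNA libraries. PSMC2 was the least abundant, only just below PSMC6, at 36.5, 37.4 and 36.9 against 42.5, 37.8 and 40.5 FPKM. PSMC2 was also the one member with estimated counts that were not whole numbers, and this held in every library. On GRCh38 it shares its strand and part of its span with PMPCB and the pseudogene RPS29P16 (GENCODE annotation), and the part of this overlap in its values was not tested. PSMD2, a scaffold of the base that receives ubiquitin-like domains, was even across libraries at 158, 152 and 156 against 162, 159 and 160.0 FPKM. PSMD1, the other large scaffold, was measured at 75.7, 62.5 and 65.4 against 79.9, 64.8 and 70.7 FPKM, with replicate 1 the highest of each group.

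In the lid, PSMD8 was the most abundant subunit, with 148, 142 and 159.6 FPKM in shNC and 147, 149 and 154 FPKM in shRNA libraries. PSMD12 was the least abundant, at 51.7, 44.8 and 42.9 against 59.3, 47.6 and 50.8 FPKM. The activators ranged from PSME3, the nuclear activator PA28-gamma, at 113, 110.5 and 108 against 111, 122 and 119 FPKM, down to PSME4, the large activator PA200, at 24.3, 18.9 and 18.5 against 25.6, 20.4 and 21.1 FPKM. PSMF1, which binds the core and inhibits it in vitro, was measured at 47.3, 48.5 and 47.6 against 43.2, 49.2 and 47.8 FPKM. Assembly chaperones were scarcer. PSMG1, which helps to build the alpha ring, led them at 69.3, 61.5 and 64.8 against 80.2, 68.5 and 73.0 FPKM. PSMD9, a chaperone of the base, closed the list at 17.5, 17.8 and 18.9 against 17.9, 17.8 and 17.6 FPKM. Its mean over the 6 libraries (17.91 FPKM) was only just below that of PSMG4 (17.99 FPKM). In shNC alone PSMG4 had the lower mean (17.4 against 18.1 FPKM).

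**Figure D1:**
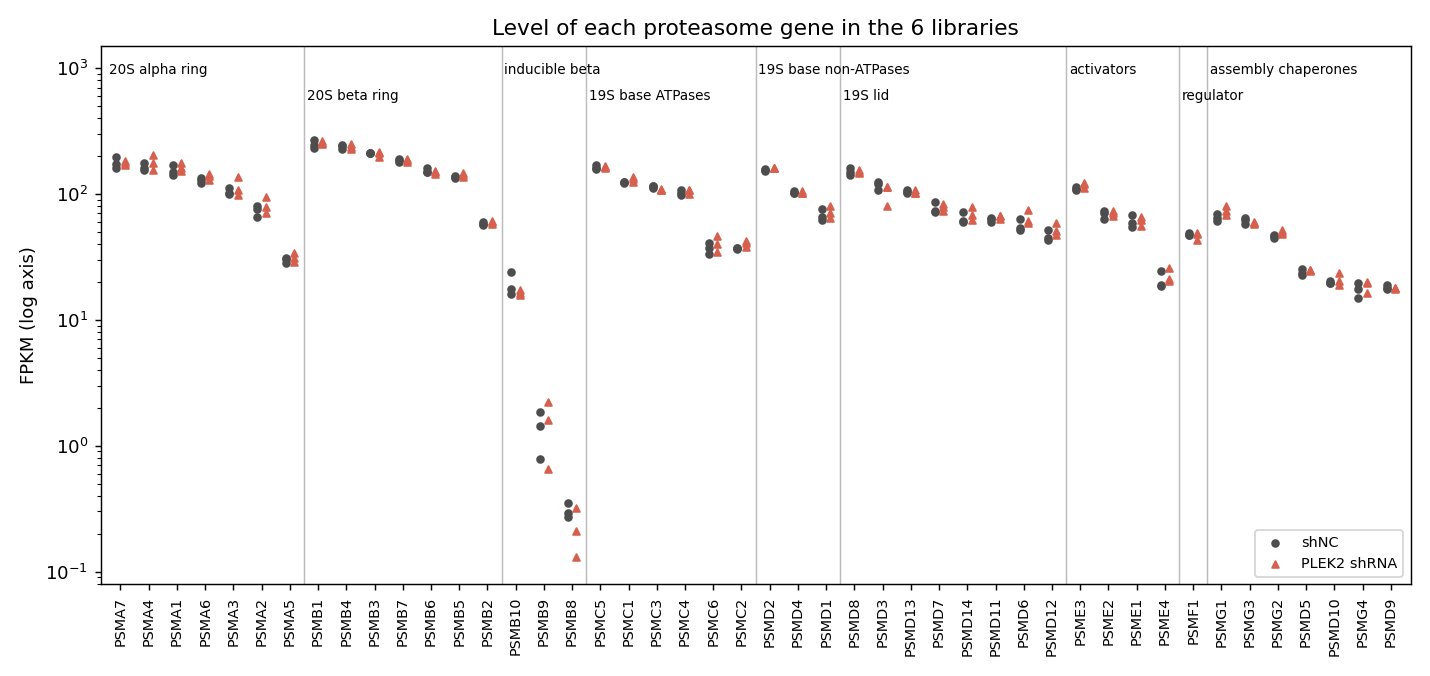
FPKM (vertical, log axis) of each of the 46 proteasome genes (horizontal, ordered by level within each group of subunits) in 3 shNC libraries (circles) and 3 PLEK2 shRNA libraries (triangles). The constitutive subunits of the core and regulatory particles lie between 30.5 and 253 FPKM as means over the 6 libraries, while the inducible PSMB8 and PSMB9 sit near 0.262 and 1.42 FPKM.

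Between the groups, 0 of the 45 genes that passed the filter on low counts were called at an adjusted p under 0.05, and 0 (0.0%) of all 12959 genes tested were. With the replicate block, 0 of the 45 were called, against 0.849% of all genes. At an unadjusted p under 0.05, edgeR's test without the block counted 0 of the 45 (3.09% of all genes), and with the block 5 of the 45 (18.3% of all genes). DESeq2 called 0 of the 45 without the block, against 0.0926% of all genes, and with the block 0 of the 41 to which it gave an adjusted p, against 1.0% of such genes. The fold changes of the 45 genes were small. They ran from -0.26 to 0.16 on the log2 scale, 27 above 0 and 18 below, with a median of 0.011, beside a median of -0.0021 over all genes tested. The precision allowed a bound: the 95% interval lay within a 1.5-fold change in either direction for 43 of the 45 genes, and for 75.7% of all genes tested. The exceptions were PSMB9 and PSMB10, both of low level. PSMG4, with means of 12.8 CPM in shNC and 13.6 CPM in shRNA libraries, lay within the bound.

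At the upper end stood PSMD6, a lid subunit, with 85.4, 72.2 and 68.7 CPM in shNC and 95.4, 78.3 and 79.4 CPM in shRNA libraries. Each shRNA library exceeded the shNC library of its number, but the groups overlapped, and the log2 fold change of 0.16 (SE 0.12) had an adjusted p of 0.968 (edgeR quasi-likelihood). PSMD12, a lid scaffold, followed with 224, 194 and 184 CPM against 248, 203 and 215 CPM, a log2 fold change of 0.14 (SE 0.11). Next came PSMG1, with 67.4, 59.3 and 62.3 CPM against 75.1, 65.0 and 68.2 CPM, a log2 fold change of 0.14 (SE 0.093). For these last 2 genes as well, the groups overlapped and each pair of equal number had the shRNA library higher. All 3 values moved when a single library of replicate 1 was left out. Without shRNA library 1 they were 0.064 for PSMD6, 0.057 for PSMD12 and 0.080 for PSMG1. Without shNC library 1 they were 0.27, 0.25 and 0.20. With the block and without replicate 1 of both groups they were 0.17, 0.15 and 0.14, close to the values from all 6 libraries. Without shNC library 3, PSMD12 was at 0.096.

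PSMB10 was at the lower end, with 14.1, 15.5 and 21.0 CPM in shNC and 13.3, 14.1 and 14.8 CPM in shRNA libraries. Library 3 of shNC stood above the other 5. The log2 fold change was -0.26 (SE 0.16), and the fold of 0.835 had a 95% interval from 0.649 to 1.08. Without that shNC library the log2 fold change was -0.061. PSMD3, a lid scaffold encoded at chr17:39980807-39997959 (plus strand, GRCh38), was measured at 223, 251 and 255 CPM against 160.0, 231 and 231 CPM. Its lowest library was shRNA 1, and shNC 1 (223 CPM) lay below shRNA 2 and 3, so that the groups overlapped although each pair had the shRNA library lower. The log2 fold change was -0.23 (SE 0.14, adjusted p = 0.968) and, with the replicate block, -0.24 (SE 0.068, adjusted p = 0.0982 in edgeR), the smallest adjusted p of any of the 45 genes. Without shRNA library 1 and without the block it was -0.073. In the block fit restricted to replicates 1 and 2, PSMD3 was called (log2 fold change -0.29, adjusted p = 0.0235 in edgeR), where 2.29% of all genes were, and it was the only member called in any fit run between the groups. Restricted to replicates 2 and 3 the value was -0.13 (adjusted p = 0.162 in edgeR), and to replicates 1 and 3 it was -0.30 (adjusted p = 0.301 in edgeR). PSMC3, an ATPase of the base, came next above these, with 163, 169 and 168 CPM against 152, 155 and 157 CPM and a log2 fold change of -0.11 (SE 0.070).

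In CPM, the groups did not overlap for PSMC3, PSMD9 and PSMG3, 3 of 45 genes, where 9.21% of all genes tested had groups without overlap. In all 3 the shRNA libraries had the lower CPM. In FPKM, PSMC3 again had groups without overlap and lower shRNA libraries, while the groups overlapped for PSMD9 and PSMG3. For PSMC2, PSMD2 and PSMG2 they did not overlap in FPKM, and the shRNA libraries were the higher ones. The share of all genes without overlap in FPKM was not computed, so these members have no background beside them. Counting pairs of equal number, 12 genes were higher in the shRNA library of all 3 pairs, against 19.9% of all genes, and 9 were lower in all 3, against 21.1%.

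By sub-complex, the alpha ring had 6 of 7 genes above 0, and their median on the log2 scale was 0.071, whereas the beta ring had 3 of 7 and a median of -0.026. The base ATPases had 4 of 6 above 0 (median 0.024), the other base subunits 2 of 3 (0.011), the lid 4 of 8 (0.013), the activators 2 of 4 (0.018) and the chaperones 5 of 7 (0.041), while PSMF1 had a log2 fold change of -0.055. None of these genes was called. As a share of summed FPKM, the 14 constitutive core subunits took 0.414%, 0.391% and 0.399% in shNC and 0.437%, 0.393% and 0.414% in shRNA libraries. Replicate 1 was the highest of both groups. The group means of 0.402% ± 0.012 and 0.414% ± 0.022 (SD, n = 3 each) came from groups that overlapped (two-sided exact permutation test, p = 0.5, 0.667 after adjustment over 12 sets). The shRNA mean was 3.21% above the shNC mean, and 0.621% above it when summed FPKM was scaled by TMM in place of a share. The difference was 0.454% without shRNA library 1, 5.91% without shRNA library 2, 4.91% without shNC library 1 and 1.90% without shNC library 2. For the regulatory particle the means were 0.308% ± 0.011 and 0.315% ± 0.0060 (SD, n = 3 each; exact permutation p = 0.3, adjusted 0.667), and for all 46 genes 0.823% ± 0.025 and 0.847% ± 0.029 (p = 0.3 by the same exact test, adjusted 0.667). With 3 against 3 libraries this test cannot give a p below 0.1. For the core, the regulatory particle and all 46 genes, each shRNA library lay above the shNC library of its number. For the core, the exact permutation test on pairs gave p = 0.25, the smallest it can give with 3 pairs.

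**Figure D2:**
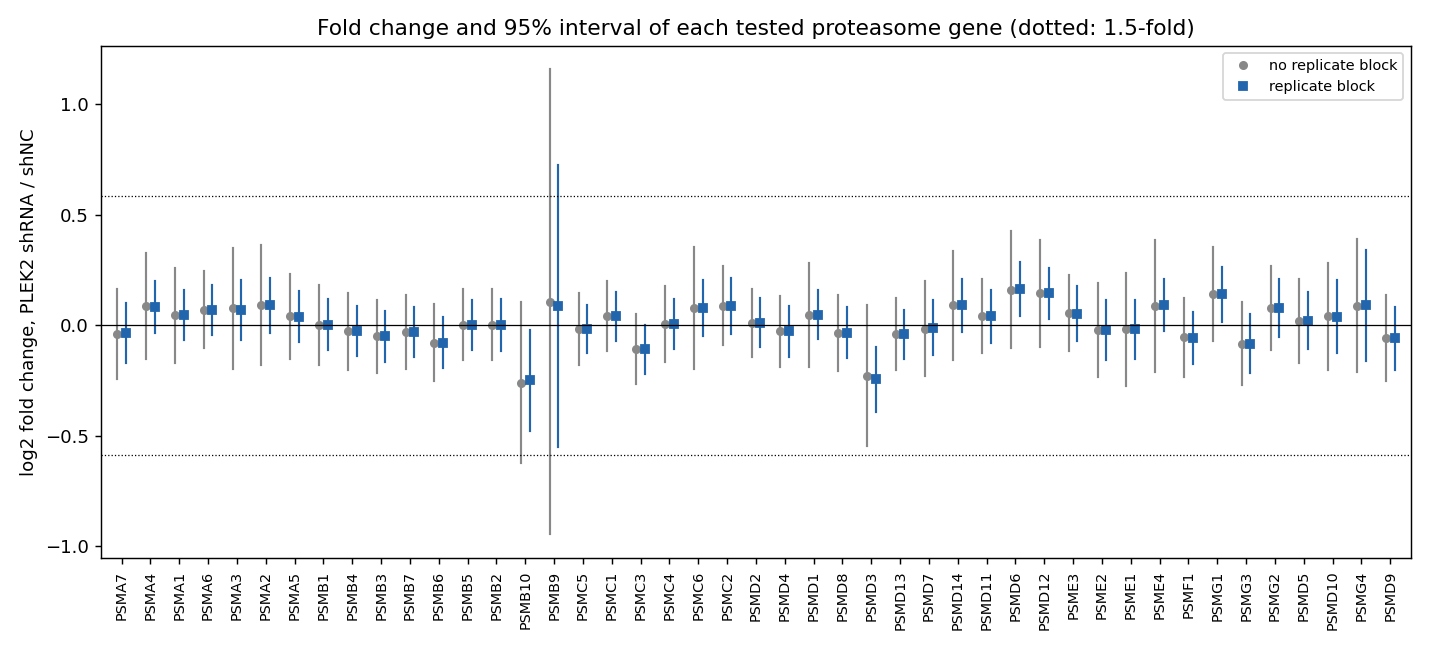
Log2 fold change of PLEK2 shRNA over shNC (vertical) with its 95% interval for the 45 tested proteasome genes (horizontal), from edgeR without (grey circles) and with (blue squares) the replicate block, with dotted lines at a 1.5-fold change. All estimates lie between -0.26 and 0.16, and without the block the intervals of PSMB9 and PSMB10 alone reach past a dotted line.

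The catalytic subunits were followed one by one, since the inducible forms compete with the constitutive ones for a place in the core. Their log2 fold changes come from TMM-scaled counts, not from the FPKM values printed beside them. PSMB5 was measured at 134, 137 and 138 FPKM in shNC and 146, 143 and 136 FPKM in shRNA libraries, with a log2 fold change of 0.0016 (SE 0.071). PSMB6 was measured at 149.8, 149 and 162 against 150.2, 144 and 153 FPKM, with a log2 fold change of -0.079 (SE 0.077). This value was -0.030 without shNC library 3. PSMB7 was measured at 191, 178 and 185 against 186, 179 and 191 FPKM, with a log2 fold change of -0.031 (SE 0.073). Its mean FPKM, 184.7 in shNC and 185.4 in shRNA libraries, went the other way. All 3 had overlapping groups and an interval within 1.5-fold.

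Their inducible counterparts were rare. PSMB8 had 6, 6 and 6 counts in shNC and 2, 7 and 3 counts in shRNA libraries, the only one of the 46 genes to fail the filter on low counts, with 0.270, 0.290 and 0.350 against 0.130, 0.320 and 0.210 FPKM. PSMB9 had 11, 24 and 19 counts against 9, 22 and 30, or 0.780, 1.85 and 1.44 against 0.650, 1.60 and 2.22 FPKM. PSMB10 was more abundant, at 16.1, 17.7 and 24.1 against 15.8, 16.3 and 17.4 FPKM. PSMB8 and PSMB9 lie on opposite strands of chromosome 6 and overlap (PSMB8 chr6:32840717-32844679 minus, PSMB9 chr6:32844136-32859851 plus, GRCh38). PSMB9 also overlaps TAP1 on the opposite strand, and TAP1 was far more abundant, at 35.5 to 39.0 CPM over the 6 libraries. Whether counting used the strand is not given in the sources used here, and without it reads from these overlaps cannot be told apart.

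Set against its partner, PSMB8 reached 0.202%, 0.211% and 0.254% of PSMB5 in shNC and 0.0891%, 0.224% and 0.154% in shRNA libraries. The mean log2 ratio differed by -0.60 (shRNA minus shNC, exact permutation p = 0.3, 0.6 after adjustment over 3 ratios), on counts of 7 or fewer. Without shRNA library 1 this difference was -0.25, and without shRNA library 2 it was -0.91. With 1 FPKM added to both genes it was -0.15. PSMB9 reached 0.521%, 1.24% and 0.888% of PSMB6 in shNC and 0.433%, 1.11% and 1.45% in shRNA libraries, a log2 difference of 0.092 (exact permutation p = 0.9, adjusted 0.9). Its sign turned when single libraries were left out, to -0.25 without shNC library 1, -0.071 without shRNA library 2 and -0.26 without shRNA library 3, and it was 0.61 without shRNA library 1 and 0.38 without shNC library 2. In both groups replicate 1 had the lowest ratio. PSMB10 reached 8.41%, 9.94% and 13.0% of PSMB7 in shNC and 8.48%, 9.11% and 9.09% in shRNA libraries, a log2 difference of -0.21 (exact permutation p = 0.4, adjusted 0.6), which was -0.041 without shNC library 3 and -0.36 without shNC library 1. All 3 ratios overlapped between groups.

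**Figure D3:**
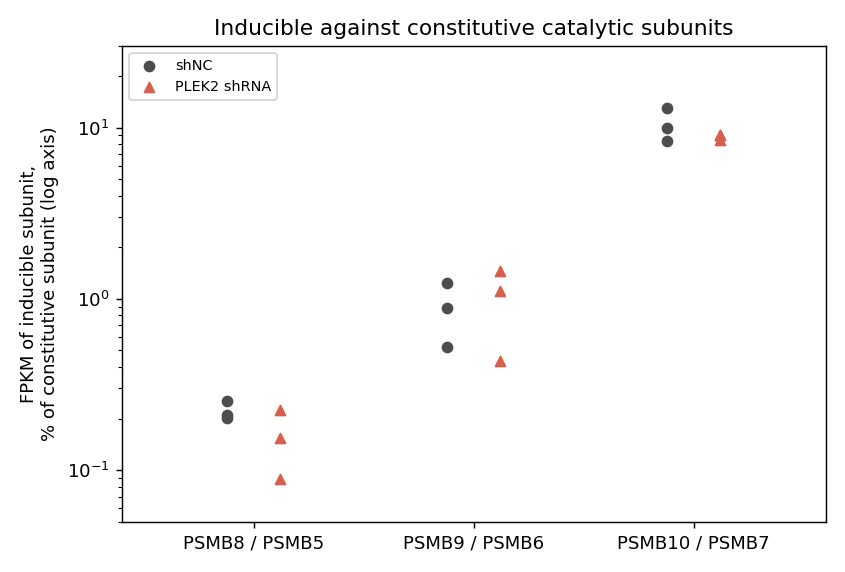
FPKM of each inducible catalytic subunit as a percent of the constitutive subunit it replaces (vertical, log axis) for 3 pairs of genes (horizontal), in shNC (circles) and PLEK2 shRNA libraries (triangles), 3 each. PSMB8 and PSMB9 stay under 1.5% of their partners, PSMB10 lies between 8.41% and 13.0%, and the groups overlap for each pair.

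The libraries of both groups carry numbers from 1 to 3, and more members were called for these numbers than for the group. In a fit with group and replicate number, 13 of the 45 genes were called for the replicate number (edgeR quasi-likelihood F test with 2 degrees of freedom, adjusted p under 0.05), and 28.4% of all genes were. The share among the proteasome genes is close to this background and is not particular to them. Of the 45 genes, 10 were called and higher in replicate 1 than in the mean of replicates 2 and 3, against 15.6% of all genes tested, and 3 (PSMB9, PSMD3 and PSME1) were called and lower, against 12.8%. DESeq2's likelihood ratio test called 7 of the 44 members to which it gave an adjusted p, against 16.5% of such genes, namely PSMA2, PSMA4, PSMD1, PSMD3, PSMD6, PSMD12 and PSME4.

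The genes higher in replicate 1 were 4 of the 7 alpha subunits (PSMA1, PSMA2, PSMA3 and PSMA4), the ATPase PSMC6, the base scaffold PSMD1, the lid subunits PSMD6, PSMD12 and PSMD14, of which PSMD14 is the deubiquitinase, and the activator PSME4. None of the 7 constitutive beta subunits was called. PSME4 had the smallest adjusted p (0.00289), with 172, 133 and 128 CPM in shNC and 174, 142 and 145 CPM in shRNA libraries 1 to 3, and replicate 1 exceeded the mean of the others by 0.34 on the log2 scale. PSMA2 was measured at 108, 88.7 and 102 CPM against 123, 93.8 and 102 CPM (log2 difference 0.26, adjusted p = 0.00904 in edgeR). PSMC6 was measured at 62.8, 51.0 and 56.3 CPM against 67.9, 52.1 and 59.8 CPM (log2 difference 0.26, adjusted p = 0.0105 in edgeR). In these 3 genes replicate 1 was the highest library of each group.

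PSMD3 went the other way, lower in replicate 1 by 0.35 on the log2 scale (-0.35, adjusted p = 0.00987 in edgeR), with the values given above. PSME1, a part of the interferon-induced activator, was measured at 48.0, 51.4 and 59.3 CPM against 46.7, 53.8 and 56.1 CPM (log2 difference -0.22, adjusted p = 0.0349 in edgeR). PSMB9 differed most in size, by -1.31 on the log2 scale (adjusted p = 0.0343 in edgeR), on 9 to 30 counts per library.

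**Figure D4:**
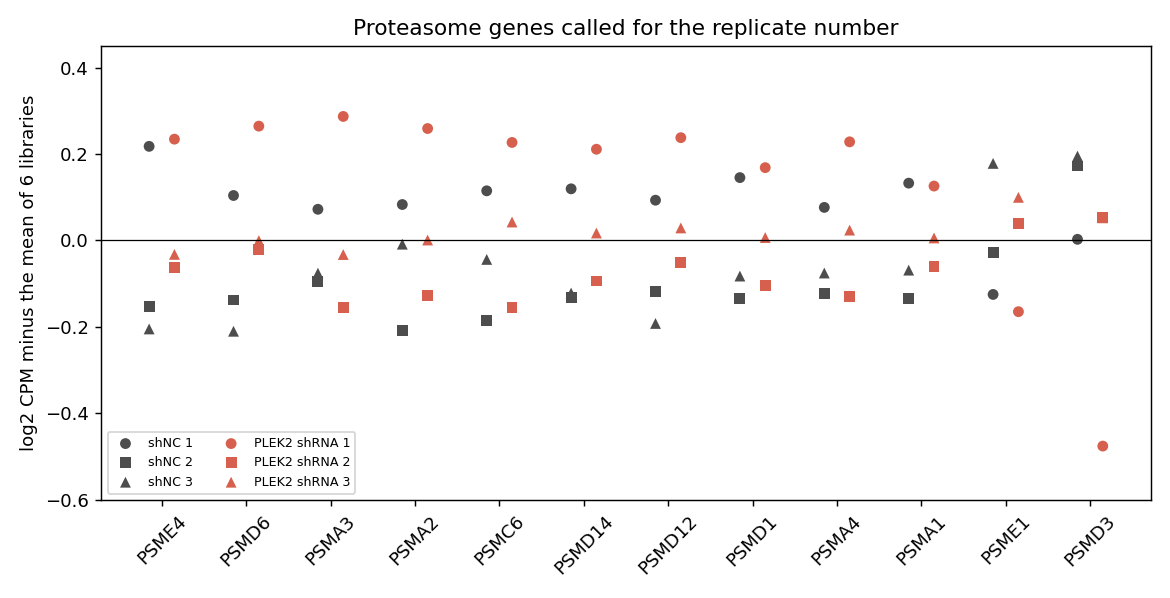
Log2 CPM minus the mean of the 6 libraries (vertical) for 12 of the 13 proteasome genes called for the replicate number (horizontal), with shNC in grey and PLEK2 shRNA in red, and circles, squares and triangles for replicates 1, 2 and 3. Replicate 1 lies above the others of its group in the first 10 genes and below them in PSME1 and PSMD3; PSMB9 is left out because its log2 difference of -1.31 would set the scale.

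The base composition of the transcripts moved with both contrasts. The GC content of the canonical transcript (GENCODE 44) ran from 36.4% in PSMC6 to 61.7% in PSMB10. Across the 45 genes it correlated with the difference between replicate 1 and the others at r = -0.55 (rho = -0.75), and at -0.78 without PSMB9. Over 12478 genes with a GC value the correlation was -0.65. With the log2 fold change between the groups it correlated at r = -0.76 (rho = -0.71) among the 45 genes and at -0.43 (rho = -0.52) over all genes. These correlations are across genes measured in the same 6 libraries, which are not independent replicates, and both contrasts share those libraries.

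When the members were divided at their median GC content, a division chosen after the values were seen, the 22 genes of lower GC (36.4% to 47.9%) had 21 log2 fold changes above 0 and 1 below, with a median of 0.074. The 23 genes of higher GC (48.4% to 61.7%) had 6 above and 17 below, with a median of -0.031. Of all genes tested on the low side of that division, 72.2% lay above 0, and of those on the high side 28.8% did. The alpha ring and the beta ring differ in this respect too. Apart from PSMA7 at 51.9%, the alpha subunits had a GC content of 43.8% or less, whereas the beta subunits ran from 44.1% to 55.2%. The part of GC content in the fold changes was not tested.

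**Figure D5:**
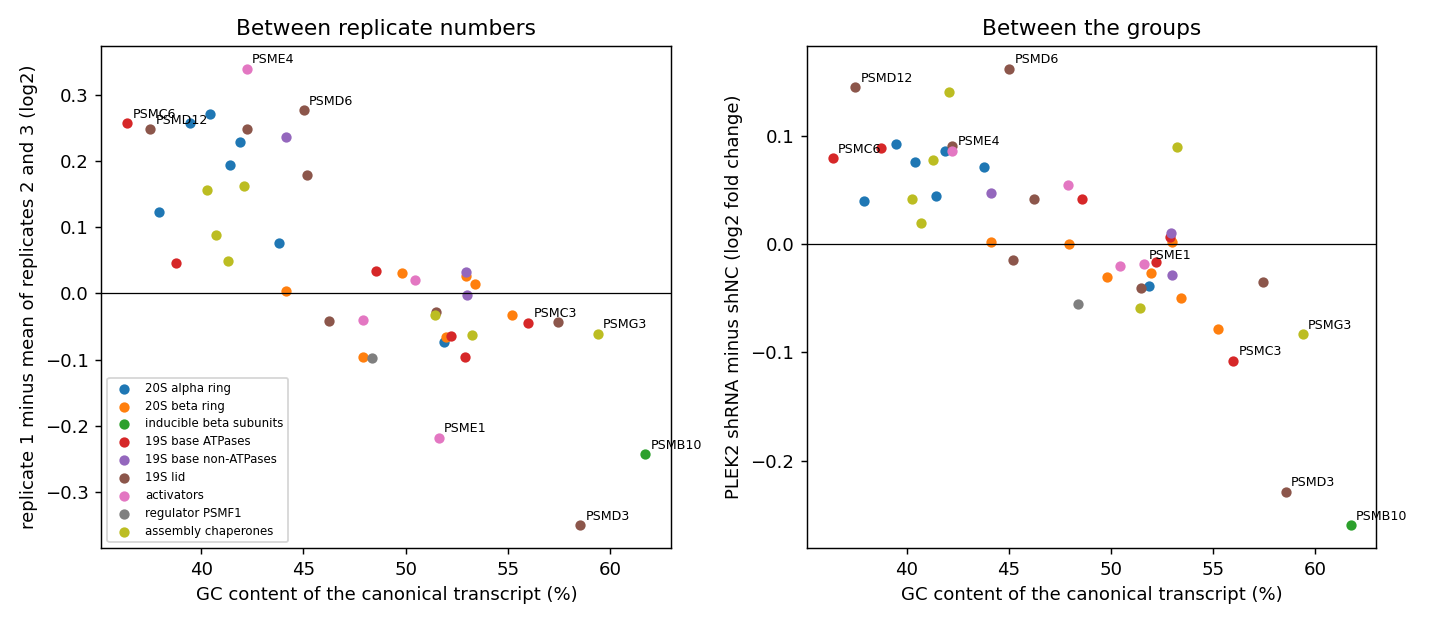
Difference between replicate 1 and the mean of replicates 2 and 3 (left, log2) and log2 fold change of PLEK2 shRNA over shNC (right) against the GC content of the canonical transcript in percent, one point per proteasome gene and coloured by sub-complex, without PSMB9. Points descend from PSMC6 and PSMD12 at low GC to PSMD3 and PSMB10 at high GC in both panels, with r = -0.78 on the left and r = -0.79 on the right over 44 genes.

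The other genes of the pathway were examined through a list of 39, all of which passed the filter, covering subunits outside the symbol rule, associated enzymes, transcription factors of subunit genes, ubiquitin shuttles, the unfoldase VCP and its cofactors, ubiquitin genes, activating enzymes and antigen processing. None of the 39 was called between the groups without or with the replicate block, beside 0.0% and 0.849% of all genes, and 25 lay above 0 and 14 below, with a median log2 fold change of 0.026. NFE2L1 was measured at 271, 299 and 296 CPM in shNC and 251, 314 and 309.8 CPM in shRNA libraries, a log2 fold change of 0.014 (SE 0.10) with overlapping groups. POMP, the chaperone of core maturation, was measured at 127, 124 and 130.4 CPM against 143, 122 and 128 CPM (log2 fold change 0.043, SE 0.085). SEM1, a small lid subunit, was measured at 27.7, 25.8 and 27.7 CPM against 31.5, 28.8 and 26.9 CPM (log2 fold change 0.10, SE 0.10).

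Without the block the adjusted p-values of these 39 genes ran from 0.968 to 0.997 in edgeR. With it, NGLY1 and ADRM1 were among those with the smallest. NGLY1, which de-glycosylates NFE2L1 as a step of its activation, was measured at 33.6, 23.1 and 24.6 CPM against 39.7, 27.5 and 28.3 CPM (log2 fold change 0.23, SE 0.19; with the block, adjusted p = 0.125 in edgeR). ADRM1, a ubiquitin receptor of the base, was measured at 238, 269 and 265 CPM against 206, 253 and 238 CPM (log2 fold change -0.15, SE 0.096; with the block, adjusted p = 0.159 in edgeR). For NGLY1 and ADRM1 the groups overlapped. For the replicate number, 12 of the 39 genes were called, beside 28.4% of all genes.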

How the data were processed

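Poly(A) RNA of HCT116 cells was sequenced in 6 libraries as 50-base single-end reads. The authors deposited estimated counts per gene and, in columns without a stated unit, values read here as FPKM. The submitters' processing notes name HISAT2 2.0.4, Bowtie2 2.2.5, RSEM 1.2.12, DESeq2 1.4.5 and GRCm38.p6, a mouse build, whereas row identifiers carry the human taxon (9606) and human gene numbers. The build behind the counts is therefore uncertain, and coordinates come from the GRCh38 annotation (GENCODE 44) or RefSeq promoters. The authors' group means were not used.

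Groups and numbers came from the sample titles. Counts were rounded, filtered (filterByExpr defaults: 12959 of 17047 genes) and scaled by TMM. They were compared in edgeR 4.0.16 by the quasi-likelihood test with Benjamini-Hochberg adjustment, threshold 0.05. The same fit was run on simulated counts, but the outcome is not given here and lends the threshold no support. Alternatives used limma 3.58.1 and DESeq2 1.42.0 in R 4.3.3; shares and ratios used exact permutation in scipy 1.17.1. Libraries of equal number were treated as pairs. Deviations from group means correlated at 0.736, 0.561 and 0.562 between libraries of equal number and at -0.628 to 0.362 otherwise. This was over 10231 genes with a mean log2 CPM of at least 3. Over the 44 proteasome genes among them, equal numbers gave 0.702, 0.688 and 0.430, but shNC 3 correlated at 0.445 with shRNA 2. Deviations cancel within each group, so these correlations are not independent of one another. No source states a shared day or batch.

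Members follow from their symbols, but this gene family and the lists were chosen with earlier results of these data known. Values per library are given for PLEK2, the catalytic subunits, the 3 highest and 3 lowest log2 fold changes, and the highest and lowest FPKM of each sub-complex, and for genes called between the groups, of which there were none. In the pathway list they are given for NFE2L1, POMP, SEM1, ADRM1 and the smallest adjusted p-values, of which 1 gene is not reported here. The genes detailed for the replicate number and the GC division were chosen after their values were seen.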

Additional observations from a re-analysis of the deposited data

How the results depend on the processing

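In 20 alternative fits between the groups (DESeq2's size factors, library totals, looser and stricter count filters, DESeq2, limma on log2 FPKM, the replicate block and each library left out), the number of proteasome genes called was 0 in all but 1, the block without replicate 3 of both groups, which called 1 (PSMD3). Their median log2 fold change of 0.011 moved to 0.042 with library totals, without and with the replicate block (0.04197 and 0.04225), and to 0.052, 0.053 and 0.052 with limma on log2(FPKM + 1), log2(FPKM + 0.1) and after a filter at a mean of 1 FPKM; leaving out single libraries gave -0.011 to 0.042. Over all genes tested, the median was -0.0021 in the main fit. It was 0.029 and 0.030 with library totals without and with the block, and 0.026, 0.031 and 0.028 in the same 3 limma fits. The number of members above 0, 27 of 45 in the main fit, was 34 with library totals, 36 with limma and 19 without shRNA replicate 1. Values near 0 changed sign. PSMB7 was at 0.00080 and 0.00087 with library totals without and with the block, 0.0053, 0.0053 and 0.0053 with limma, 0.0091 without shNC replicate 1 and 0.0077 with the block and no replicate 1. PSMB5 was at -0.0036 and -0.015 without shNC replicate 2 or shRNA replicate 1 and at -0.0086 with the block and no replicate 1. Leaving out single libraries gave -0.015 to 0.025 for PSMB5, -0.054 to 0.0091 for PSMB7 and -0.29 to 0.47 for PSMB9. PSMB9 was at -0.17 and -0.29 without shNC replicate 1 or shRNA replicate 3 and at -0.25 with the block and no replicate 3, and its log2 ratio to PSMB6 ranged from -0.26 to 0.61 when single libraries were left out. DESeq2 called 7 members for the replicate number, not 13, and over all genes 1765, not 3684; it was run as a likelihood ratio test in place of the Wald test planned. With all 6 libraries, the block changed no call of a proteasome gene. The block fits that left out a replicate number had no counterpart without the block. The cause of these shifts was not tested. PSMB8 and PSMB9, at 2 to 30 counts, limit any statement on the inducible subunits.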

Other observations

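In the list of other pathway genes, 3 of 11 antigen-processing genes and 12 of all 39 were called for the replicate number, beside 28.4% of all genes, and 4 of them are described here. NLRC5, the activator of MHC class I genes, was measured at 6.19, 12.3 and 11.1 CPM in shNC and 5.72, 10.7 and 10.9 CPM in shRNA libraries 1 to 3 (replicate 1 minus the others -0.91 on the log2 scale, adjusted p = 0.00118 in edgeR). IRF1, an interferon-responsive transcription factor, was measured at 18.4, 25.7 and 23.5 CPM against 16.7, 26.3 and 25.2 CPM (-0.52, adjusted p = 0.00337 in edgeR). Both were lower in replicate 1 of each group, as PSMB9 and PSME1 were. UBA6, a ubiquitin-activating enzyme, was higher there, with 115, 72.4 and 69.1 CPM against 145, 74.1 and 63.5 CPM (0.89, adjusted p = 7.68e-05 in edgeR), as was UCHL5, a deubiquitinase of the base, with 69.5, 50.5 and 51.7 CPM against 80.4, 53.0 and 56.4 CPM (0.50, adjusted p = 0.000512 in edgeR). The GC content of the canonical transcript was 58.0% for NLRC5, 53.0% for IRF1, 35.6% for UBA6 and 34.4% for UCHL5. These 4 genes were picked after their values were seen, and the part of GC content was not tested.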
